A study of Mus musculus with 8 samples.

Results

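The clustered protocadherins were examined as 58 genes of mouse chromosome 18, chosen as every gene of the RefSeq gene table whose symbol starts with Pcdha, Pcdhb or Pcdhg inside a fixed interval of the mm10 genome. They comprised 14 alpha, 22 beta and 22 gamma genes, among 21631 protein-coding genes on chromosomes 1 to 19 and X. The interval held 18608 of the 32984740 cytosine positions listed on those chromosomes. Whole-genome bisulfite sequencing, in which an unmethylated cytosine is read as thymine, had been applied to quiescent muscle stem cells sorted from limb muscle as CD45-, CD31-, Sca1- and VCAM+. The young group was 4 male C57BL/6 mice aged 4 months, and the old group was 4 male C57BL/6 mice aged 22 months, with 1 animal per library and no genetic change or treatment in either. The question was how methylation of these cells differs with age.

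Clustered protocadherins are cell-surface adhesion proteins best known from neurons, which each switch on a small random choice of them and so gain a surface identity. Every variable exon has its own promoter and encodes the whole outer part of a protein; in the alpha and gamma subclusters it is spliced to constant exons that encode a shared inner part, whereas beta genes have no constant exons. Methylation of a promoter keeps CTCF from binding there and the exon silent, and a small group called C-type is expressed in a more uniform way than the rest, which are called alternate here. In muscle stem cells no expression was measured here, so levels of DNA methylation are all that is described.

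The deposited table gives 1 smoothed level and 1 dispersion per age at each cytosine of a CpG, with the authors' p-value and FDR for old against young. Values per animal are not in it, so levels stand without an SD, no difference can be set against the spread between animals, and the depth behind a position is unknown. The labels state between 115 M and 200 M reads per library. In the interval, the 18608 positions formed 7273 stretches of equal level, and 88.0% of 9218 neighbouring pairs carried the same levels, so positions are far fewer independent measurements than their number. Genes that define the muscle stem cell were low at their less methylated ends: 6 of 7 stood under 10% in young cells, with Pax7, the regulator of these cells, at 4.21% in young and 4.67% in old cells, Vcam1, the sort marker, at 7.66% and 6.21%, and Itga7, an integrin gene, highest at 16.8% and 17.6%. Ends of genes of other cell types were higher in part, with a median of 49.1% in young and 56.4% in old cells over 3 blood genes, of which Ptprc encodes the CD45 antigen used to exclude blood cells and stood at 49.1% and 61.4% over 11 positions. Their part in the values below was not tested.

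Gene starts of the cluster were partly methylated in both ages, unlike most gene starts of the genome. Within 500 bp of the start, 57 members had the minimum of 10 positions (Pcdhb9 had 7 and was left out), and their levels had a median of 39.2% in young and 41.7% in old cells. Over all 14751 gene starts tested the medians were 4.88% and 4.78%. Of the members 53 stood at 20% or more in young cells, against 31.8% of all starts, and 3 stood under 10%, against 62.6%. All 52 alternate starts with enough positions lay between 20.6% and 59.2% in young cells and between 25.5% and 63.1% in old cells, so none was nearly unmethylated and none nearly fully methylated.

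**Figure D1:**
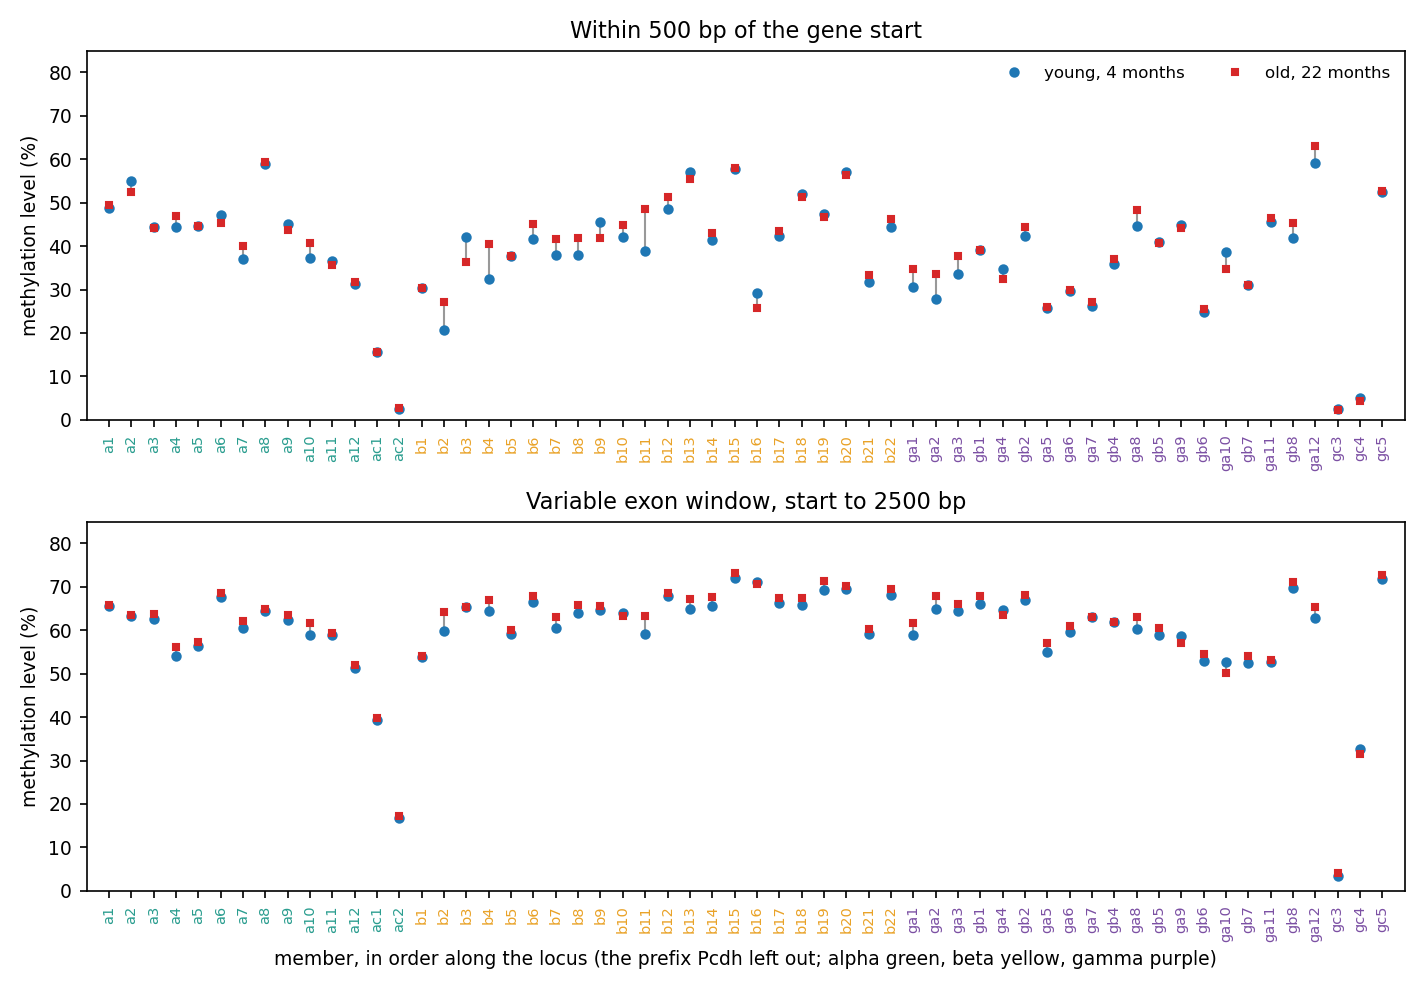
Methylation level in percent within 500 bp of the gene start (upper panel) and from the start to 2500 bp (lower panel) for each member in its order along the locus, with 1 point per age that pools 4 animals, so that no error bar can be drawn. Young and old points lie within 5 points of each other at all but 5 of 57 starts with enough positions and at all 58 exons, alternate genes keep to a band, and Pcdhac2, Pcdhgc3 and Pcdhgc4 lie near the floor at their starts.

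The alpha starts were intermediate in both ages. The 12 alternate alpha genes together had 44.1% in young cells and 44.4% in old, with medians over genes of 44.5% and 44.4%. Pcdha8 was the highest alpha start at 58.9% and 59.4%, and Pcdha12, the last alternate alpha gene, was the lowest alternate one at 31.3% and 31.8%. Differences ran from -2.47 points at Pcdha2 to 3.42 points at Pcdha10, with 7 of the 12 higher in old.

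The variable exons of alpha lay well above their starts. Taken from the start to 2500 bp, which holds the first 500 bp of the start window too, they averaged 60.4% in young and 61.4% in old cells over 12 alternate genes, and all 12 were higher in old. The alpha exons with the highest differences were Pcdha10 (58.98% in young cells and 61.6% in old), Pcdha4 (54.2% and 56.1%) and Pcdha7 (60.5% and 62.2%). Those with the lowest were Pcdha11 (58.98% and 59.3%), Pcdha1 (65.6% and 65.9%) and the C-type gene Pcdhac1. Pcdha6 was the most methylated alpha exon, at 67.7% and 68.5%, and Pcdha12 the least methylated alternate one, at 51.2% and 52.0%. The whole alpha range of differences, 0.298 to 2.65 points, is narrow beside the spread of levels between alternate alpha exons, which had an SD of 4.82 points over genes.

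Beta genes had the widest differences at single starts. Their 22 starts averaged 41.0% in young and 42.6% in old cells over all positions. Pcdhb11 had 38.9% in young cells and 48.6% in old, Pcdhb4 at 32.5% and 40.4%, and Pcdhb2, the lowest beta start in young cells, at 20.6% and 27.0%. Pcdhb3 went the other way, from 42.2% to 36.4%, as did Pcdhb16, from 29.3% to 25.8%. Beta starts rest on few positions, with a median of 27 against 67.5 in alternate alpha starts, and beta genes resemble one another in sequence, so how well reads were told apart between them was not tested. Pcdhb15 was the highest beta start at 57.8% and 57.9%.

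Beta variable exons averaged 64.7% in young and 66.2% in old cells, and 19 of 22 were higher in old. The highest differences were in Pcdhb2 (59.9% and 64.3%), Pcdhb11 (59.1% and 63.3%) and Pcdhb4 (64.4% and 67.0%), which were also the highest at the beta starts; the windows overlap by 500 bp, so these values are not separate. The 3 beta exons that were not higher in old were Pcdhb10 (64.1% and 63.3%), Pcdhb16 (71.1% and 70.8%) and Pcdhb3, whose levels of 65.3% differed by -0.00903 points. Pcdhb15 was again the most methylated beta exon, at 72.1% and 73.3%, and Pcdhb1, which stands apart from the rest of the row, the least, at 53.8% and 54.0%.

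Gamma starts were the lowest of the alternate genes. The 19 alternate gamma genes together had 36.3% in young cells and 37.4% in old. Pcdhgb6 stood lowest at 24.7% and 25.5% and Pcdhga12 highest at 59.2% and 63.1%, the latter over 22 positions. The first 3 genes of the row were all higher in old, with Pcdhga1 at 30.5% and 34.7%, Pcdhga2 at 27.8% and 33.5% and Pcdhga3 at 33.5% and 37.6%. Pcdhga10 had the lowest difference of any gamma start, with 38.7% in young cells and 34.7% in old.

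Gamma variable exons averaged 60.2% in young and 61.2% in old cells over the 19 alternate genes, with 14 higher in old. The highest differences were in Pcdhga1 (58.9% and 61.8%), Pcdhga2 (65.0% and 67.8%) and Pcdhga8 (60.4% and 63.0%). The lowest were in Pcdhga10 (52.7% and 50.2%), Pcdhga9 (58.7% and 57.0%) and Pcdhga4 (64.7% and 63.5%). Pcdhgb8, annotated as a transcribed pseudogene, carried the most methylated alternate gamma exon, at 69.7% and 71.2%, and Pcdhgb7 the least methylated one in young cells, at 52.5% and 54.0%.

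The 5 C-type genes had no common level over their windows. Pcdhgc3 was almost unmethylated over its whole variable exon, with 3.41% in young cells and 4.07% in old, and with 2.41% and 2.29% around its start. Pcdhac2 stood at 2.49% and 2.78% around its start and at 16.7% and 17.2% over the exon window, and Pcdhgc4 at 5.10% and 4.25% around its start and at 32.5% and 31.5% over the exon window. Pcdhac1 was intermediate, with 15.5% and 15.6% at the start and 39.4% and 39.8% over the exon. Pcdhgc5, the last gene of the locus, resembled alternate genes in level, with 52.6% at the start in both ages and 71.7% and 72.7% over the exon. Differences between the ages at the C-type starts ran from -0.855 to 0.297 points.

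Around the starts the level dipped in both ages. In alternate gamma genes the mean over genes was 80.6% in young cells at 1000 to 1250 bp before the start (14 genes with positions there), 31.7% in the last 250 bp before it, and 73.9% at 1250 to 1499 bp inside the exon, with 80.2%, 33.0% and 74.7% in old cells at the same distances. Beta genes had their lowest bin at the same place, with 32.5% in young cells and 32.9% in old, and reached 73.7% and 74.8% at 1250 to 1499 bp. Alternate alpha genes had 44.7% and 42.9% in the last 250 bp before the start and 43.0% and 43.3% in the first 250 bp of the exon; farther upstream at most 7 of the 12 had positions in a bin. From 1000 bp inward the exon was above the start window in 57 of 57 members in both ages, by a median of 28.9 points in young and 28.6 points in old cells. Pcdhga7 had the steepest gradient among them in young cells, from 26.3% to 87.5%, and Pcdhgc3 the flattest, from 2.41% to 4.28%.

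**Figure D2:**
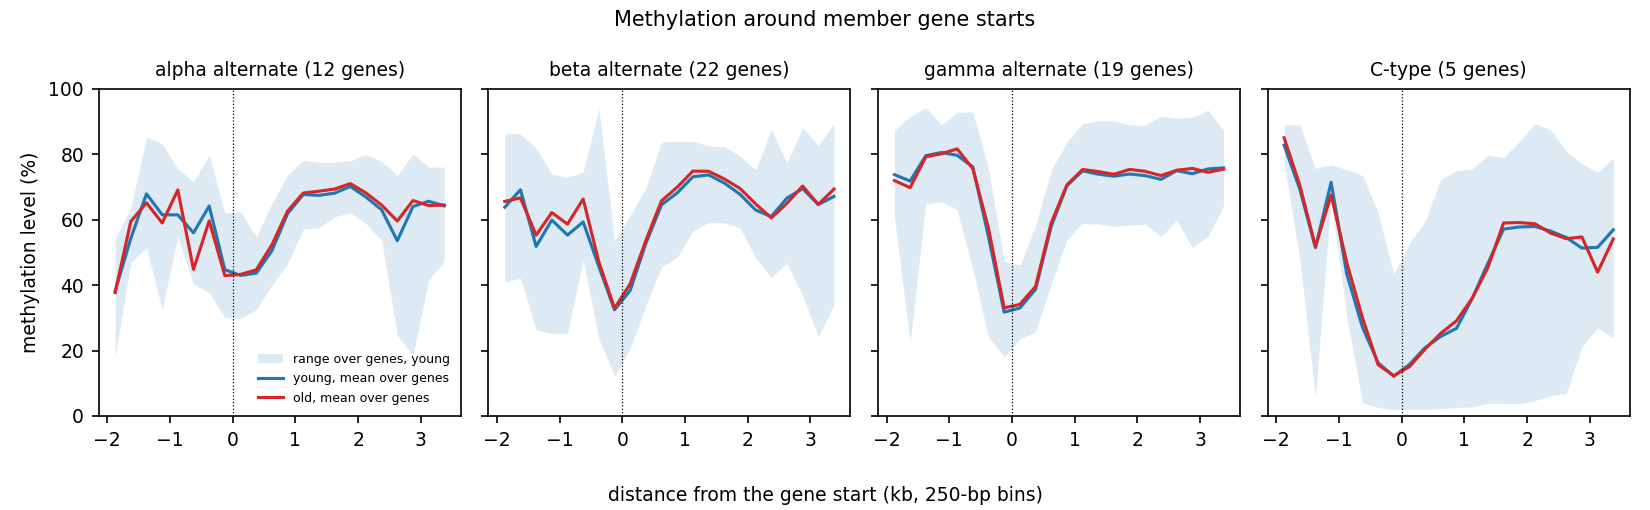
Mean level in percent by distance from the gene start in kb (250-bp bins, each gene with equal weight) for alternate alpha, beta and gamma genes and C-type genes, young in blue and old in red, with shading for the range over genes in young cells. The dip at the start is deepest in C-type genes and shallowest in alpha genes. The curves of the ages differ most outside the first 2500 bp, where most bins lack positions in some genes. In gamma genes the widest gap, 2.65 points, lies from -500 to -251 bp, with positions in 15 of 19 genes.

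Members kept much the same order of level in both ages, although 5 of 57 starts differed by 5 points or more. Over the 57 starts the young and old levels had Pearson's r of 0.976, and over the 58 exon windows 0.995. Spearman's rank correlation was 0.954 and 0.975. Over the 52 alternate starts alone it was 0.940, and by subcluster it ran from 0.917 in beta to 0.949 in gamma. These values describe genes, which share the libraries, the smoothing and, between neighbours, their position. They are not correlations across animals. Among alternate genes the starts had an SD of 9.30 points over genes in young cells, while the differences between the ages had an SD of 2.86 points.

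Sequence between the variable exons was more methylated than the starts in each subcluster. Between gamma exons the level was 76.1% in young cells and 76.4% in old, between alpha exons at 69.9% and 70.7%, and between beta exons at 66.5% and 67.3%. The region of the alpha constant exons, introns included, stood at 55.9% and 55.2%, the only one of these region classes besides the C-type gamma starts with a lower mean in old (-0.719 points). The gamma constant region stood at 40.7% and 41.8%. The spacer from alpha to beta was at 58.7% and 59.7%, and the spacer from beta to gamma, which holds Taf7 and Slc25a2, at 66.0% and 67.1%.

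The interval held nearly unmethylated stretches of at least 20 positions under 20%, some over starts of C-type genes and others away from member starts. Their description was added after the values were seen. The longest lay over Pcdhgc3, at 3229 bp and 362 positions, with 3.28% in young and 3.79% in old cells. In the alpha constant region a stretch of 1055 bp, 34.6 kb past the start of Pcdhac2, stood at 8.98% and 9.14%. In the spacer between alpha and beta 1 such stretch of 1303 bp, 47.8 kb before Pcdhb1, stood at 8.84% and 10.4%. Another, of 801 bp at 3.16% and 3.37%, lay at the less methylated end of Taf7, a general transcription factor gene. Strand was not known here, so whether that end is the start of Taf7 was not tested. The neighbouring Slc25a2, a mitochondrial carrier gene, was at 89.5% and 90.5% at its less methylated end. Inside the annotated span of Pcdhgc5, 4.355 kb past its start, a stretch of 1694 bp in the gamma constant region stood at 11.5% in young cells. It differed by -1.48 points. What these stretches do was not measured.

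**Figure D3:**
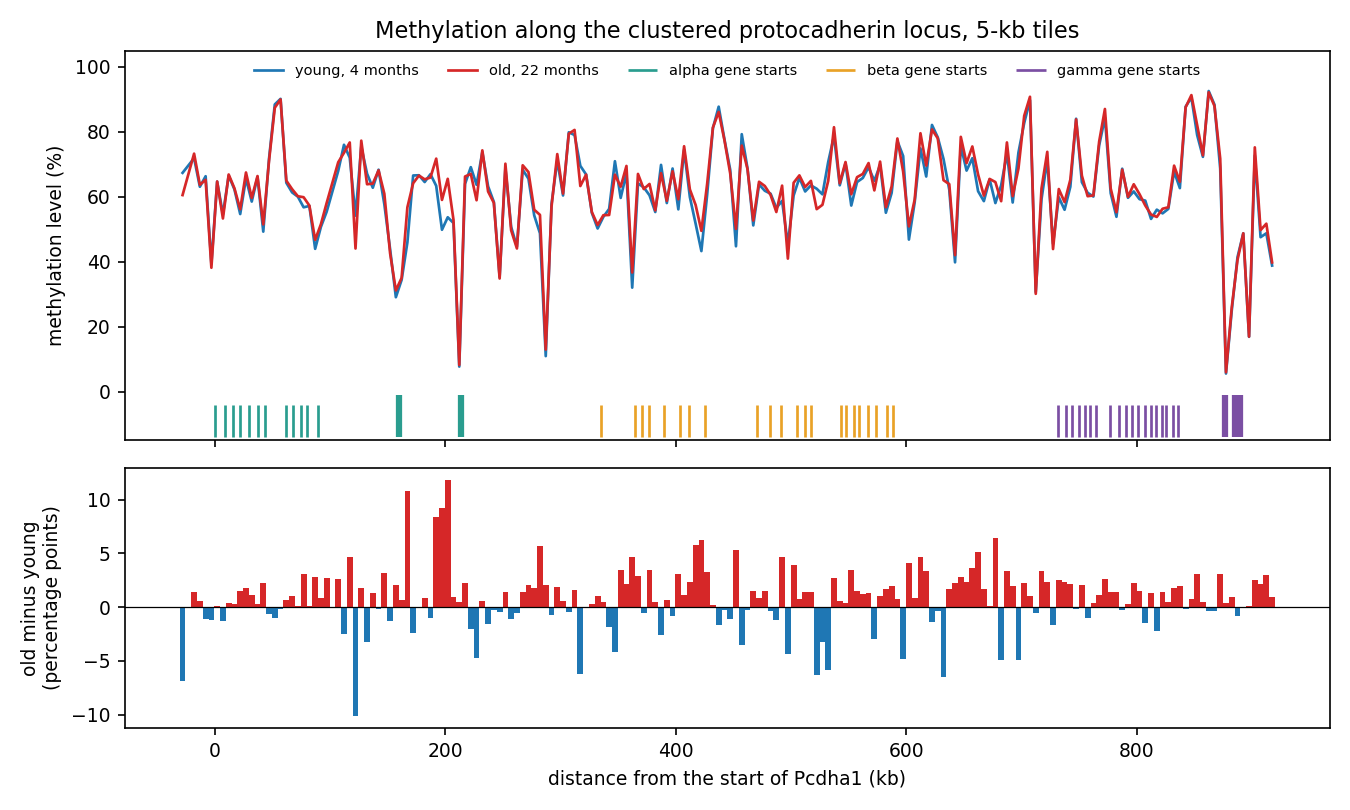
Mean level in percent of 5-kb tiles along the locus (upper panel, young in blue and old in red) with ticks at member starts, thick for C-type genes, and the difference of old minus young in percentage points (lower panel), by distance from the start of Pcdha1 in kb. Of 188 tiles 127 were higher in old, and 172 differed by less than 5 points.

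Old cells were slightly more methylated over the interval as a whole, at 60.7% against 59.8% in young cells, a difference of 0.903 points. On the rest of chromosome 18 old cells had 66.4% and young cells 65.9%, which is 0.469 points, and over chromosomes 1 to 19 and X the difference was 0.473 points. Since differences varied with level and CpG density, the mean difference of all other positions of the same level and density was worked out, and it was 0.628 points for the interval. Beta differed by 1.24 points against 0.663 for such positions, gamma by 0.834 against 0.609, and alpha by 0.682 against 0.686. Variable exons of all 3 subclusters together had 59.4% in old and 58.3% in young cells, 1.08 points against 0.740. No value per animal is available, so whether these gaps exceed the spread between animals could not be tested.

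The difference was higher than in the genome in each class of level. Positions of 20 to 40% differed by 0.884 points in the interval and by 0.0582 points over chromosomes 1 to 19 and X, those of 40 to 60% by 0.955 and 0.500 points, and those of 60 to 80%, which were 46.4% of the interval, by 1.11 and 0.663 points. Under 20% the interval differed by 0.136 points and the genome by -0.123 points. At 80% and above the values were 0.620 and 0.550 points. Neighbouring positions share smoothed values, so these are not separate measurements.

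**Figure D4:**
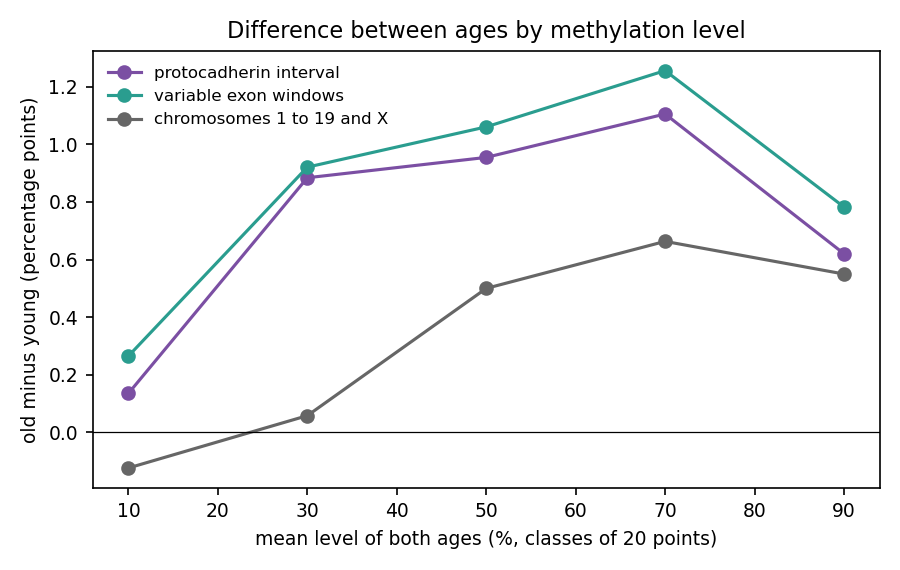
Difference of old minus young in percentage points by the mean level of both ages, in classes of 20 points, for all positions of the interval, for the variable exon windows within it and for chromosomes 1 to 19 and X. The interval lies above the genome in each class, with 1.11 against 0.663 points at 60 to 80%; no error is known for either line.

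No member passed a test across genes. A window's p was taken as 2 times the median p its positions have in the authors' table, adjusted by Benjamini-Hochberg over 16244 genes. Of 58 variable exon windows 0 were called, and 0% of all windows were; 0 members had an unadjusted p under 0.05, against 0.0246% of all windows. Around the starts 0 of 57 members were called, against 0% of 14751, and 0 had an unadjusted p under 0.05, against 0.0475%; the smallest p of a member start was 0.345, at Pcdhb11. These tests ask that most positions of a window have a small p, and a window that misses the threshold is not shown to be equal in both ages. Of the variable exon windows 49 of 58 had a higher mean in old, against 51.3% of all windows, and the median difference was 1.16 points against 0.0232. Most windows of the genome lie at other levels, so members of 50 to 75% were also set beside all 3697 windows of that level: 46 of 54 were higher, with a median of 1.202 points, against 59.02% and a median of 0.576 points. These member windows held a median of 156.5 positions against 37, and their differences had an SD of 1.26 points against 3.45. Around the starts 38 of 57 members were higher, against 42.9% of all starts, and at levels of 20 to 60% 35 of 52 were, against 53.6%. Member starts of that level held a median of 54.5 positions against 26. Shares higher in old were thus not compared between windows of like numbers of positions. Neighbouring members share smoothed sequence and animals, so these counts are not counts of separate events.

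Single positions that passed the authors' FDR of 0.05 all lay outside starts and variable exons. There were 38 in the interval, 0.204% of its positions against 0.236% over chromosomes 1 to 19 and X. Of these 27 were higher in old (0.145% of the interval's positions, against 0.132% of all) and 11 lower (0.0591%, against 0.105%). By p alone, 300 positions of the interval (1.61%) were under 0.05, against 2.61%. None of the 10221 positions of variable exon windows and none of the 3107 positions around starts passed. Calls were rare in dense sequence everywhere: with 60 or more listed positions within 500 bp, which applies to 77.9% of variable exon positions, 19 of 3911142 positions passed over all chromosomes, and with 1 to 4 such positions 2.28% passed. The interval had 2.53% in that sparse class, 1.28% against 0.812% in the class of 5 to 9, and 0.466% against 0.190% in the class of 10 to 19.

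Most called positions lay apart from each other: 28 had no other within 50 bp, and the remaining 10 formed 4 close groups, in which 9 carried the same levels as another. Of the 38, 11 lay between beta exons, 7 between gamma exons and 6 between alpha exons. Higher in old were 7 of the 11 between beta exons, 4 of the 6 between alpha exons and all 7 between gamma exons. Some of those 7, upstream of Pcdhgc3, shared levels of 77.96% in young and 92.49% in old cells. The 7 are thus fewer separate measurements than their number. Over all chromosomes 43411 of 77990 called positions were higher in old, and whether gamma departs from that share was not tested. In the authors' deposited table the position of the 38 with the smallest p had 83.7% in young cells and 75.1% in old (FDR 1.95e-18). It lay 7.05 kb past the start of Pcdhb11. Another in the authors' deposited table, 15.4 kb past the start of Pcdhga12, had 75.8% and 89.7% (FDR 1.05e-15). The widest gap among them in the authors' deposited table, in the spacer 50.9 kb before Pcdhb1, was from 20.01% to 69.1% (FDR 1.17e-07). For 37 of the 38 the cytosine at the adjacent base was listed as well, and in 0 cases did it pass. Of the 38, 34 carried, in 1 age or both, the dispersion that recurs most often (0.0438 in young, 0.0434 in old cells). It was carried by 17.5% of the interval's positions, and by 26.9% of those outside starts and variable exons, where all 38 lay.

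Runs of small p were about as frequent as the table's own rate gives. No run of at least 10 neighbouring positions with p under 0.01 and 1 sign lay in the interval, against 170 in the whole table, a rate that gives 0.0959 in this many positions. With the looser rule of 6 positions under 0.05, the interval held 6 of 12037 runs, 3 of them higher in old, where the table's rate gives 6.79. A run of 56 bp, 1.92 kb before Pcdhb6, had 47.0% in young cells and 80.8% in old, and held 2 positions past the authors' FDR. Inside the Pcdhb6 exon another stood at 57.7% and 70.8%, and just before the start of Pcdhgb8 one stood at 26.3% and 42.4%. Runs that were lower in old lay inside the Pcdhgc4 exon (38.0% and 25.7%), 1.4 kb before Pcdhb5 (82.0% and 64.0%) and 15.2 kb past the start of Pcdhac2 (71.2% and 57.1%). Runs describe where small p-values lie together, and no p was computed for the search.

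The tiles with the widest differences lay in the alpha subcluster and held few positions. The 3 adjoining tiles centred 192 to 202 kb past the start of Pcdha1, upstream of Pcdhac2, stood at 63.4%, 49.9% and 53.7% in young and at 71.8%, 59.1% and 65.6% in old cells, over 24, 16 and 26 positions. A tile centred at 122 kb went from 54.2% to 44.1% over 16 positions, and one at 167 kb from 46.0% to 56.8% over 20. Tiles have no test of their own.

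The dispersion had a recurring value on which its medians fall, so they compare little. The median was 0.0438 in young cells and 0.0434 in old, in the interval and over chromosomes 1 to 19 and X alike. In variable exon windows the medians were 0.0441 and 0.0438. The share of positions at the most common value was 10.1% in variable exons and 26.9% in the rest of the interval outside starts, against 24.0% over all chromosomes.

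Protocadherin genes outside the cluster, which encode related adhesion proteins, mostly had low ends, as did most genes. Of 12 such genes 8 stood under 10% in young cells at their less methylated end, against 60.5% of all 19269 genes. Their medians were 4.13% in young and 4.17% in old cells. Pcdh10 was at 2.89% and 2.97% and Pcdh1 at 2.84% and 2.81%, while Pcdh12, an endothelial protocadherin, was at 24.9% and 23.4% and Pcdh9 at 81.5% and 84.1%. Over all 19269 genes with a window at that end the medians were 5.29% and 5.19%.

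Genes whose products act on the cluster differed between the ages by -3.41 to 1.12 points at the ends read. Of 17 listed regulators 16 could be read, and 11 stood under 10% in young cells, against 60.5% of all 19269 genes. Of the 16, 7 were higher and 9 lower in old, 0 were called, and the median difference was -0.0465 points. Ctcf, which encodes the factor bound at active protocadherin promoters, stood at 2.45% and 2.41%, Smchd1, a chromatin protein that represses the cluster, at 2.12% and 2.06%, and the methyltransferase gene Dnmt3b, which methylates its promoters in the embryo, at 3.64% and 3.73%. Dnmt3a, which had the lowest difference of the list, was at 59.2% and 55.8%. The cohesin gene Rad21 was at 90.7% and 90.8%, and Nipbl, a cohesin loader, at 87.3% and 88.4%. The end read was chosen without regard to strand, so these values need not be those of promoters, and whether they are was not tested. The kinases Ptk2 and Ptk2b, which bind the shared inner part of the proteins, stood at 4.62% and 4.16% and at 9.36% and 9.88%.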

How the data were processed

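Trim Galore, Bismark and edgeR are named, with builds mm10 and GRCm38, per the submitters' processing notes; their roles and versions, and the tool behind smoothing and testing, are unknown here. The levels were deposited as a fraction from 0 to 1 per age group, are printed in percent, and pool 4 animals. The authors also deposited a dispersion (phi), of unknown definition, and a p-value with its FDR. Per the labels' protocols, 150 ng of DNA was amplified over 14 cycles and read as pairs of 101 bp.

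Genes came from a RefSeq table of GRCm38.p6. Strand came from a promoter table that holds no gene of chromosome 18, so genes with a strand on other chromosomes and the 58 members (17332 genes) were tested. Alpha and gamma members share their higher end (within 1240 bp and 10 bp; Pcdhgb8 ends lower), so the lower one was taken as the start; beta genes were read the same way. Start windows reached 500 bp to each side and variable exon windows 2500 bp inward. Exon annotation was not used, and no genome sequence is printed.

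A window of at least 10 positions was tested genome-wide as 2 times the median p of its positions, a bound under any dependence, with Benjamini-Hochberg adjustment and calls under 0.05. It was run on simulated data only with shifts larger than any member window showed. How often it would find differences of the size seen here was not tested. Values by level and density are means over all positions outside the interval in the same class of level (5 points) and of listed positions within 500 bp (edges at 5, 10, 20, 40 and 60). Other lists were read at the end of each gene with the lower level, which favours low values. Members and lists were chosen with earlier results of these data known. Named are the C-type genes, the 3 highest and 3 lowest exon differences and the extreme levels of each subcluster, genes beside runs, and further members chosen after their values were seen. Python 3.11.15, numpy 2.4.6, pandas 2.3.3 and matplotlib 3.10.9 were used.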

Additional observations from a re-analysis of the deposited data

How the results depend on the processing

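No paired analysis was possible because the table holds 1 value per age group and none per animal, and for the same reason no animal could be left out. A difference with no test counts as kept when it keeps its sign and moves by at most 1.5 times. Of 54 alternative values 46 were kept, 7 moved and 1 reversed. The kept values include window calls, which were 0 over all genes under every setting, and dispersion medians, which fall on the recurring value. Those could hardly move, so the count overstates how stable the level differences are. The alpha starts, C-type included, at 0.320 points, became -0.251 points as a mean of 1000-bp tile means, 0.211 points with both cytosines of a CpG averaged, and 0.618 and 0.852 points within 1000 and 2000 bp. The gamma starts, likewise, at 0.899 points, were 0.210 points as a median over positions. The variable exons of alpha, beta and gamma and the beta starts kept their differences under every alternative run. The 38 called positions became 21 at an FDR under 0.01 and 4 once the dispersion that recurs most often was left out. The looser run rule gave 6 runs in place of 0. No member window was called under any alternative. Windows of 1000 and 2000 bp, the less methylated ends, the low stretches, and the comparisons by level and density were chosen after seeing the data where they concern level differences. Depth per position is unknown, which limits every level to a description.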
